A study of Mus musculus with 7 samples.

Results

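Complement components are 10 genes of the classical pathway (C1qa, C1qb, C1qc, C1ra, C1s1, C4b and C2), of the alternative pathway (Cfb and Cfd) and of the step at which both meet (C3). They were taken by symbol from the 53465 genes of a table of read counts, all 10 were found there, and 9 passed the filter on low counts among 15774 genes tested. The kidneys came from MRL/lpr mice, a strain that carries the lpr defect of Fas and develops spontaneous lupus-like nephritis. 4 mice had received AZD1152, a prodrug of an inhibitor of Aurora kinase B, and 3 had received vehicle, so all 7 mice share the strain and its disease. The dose, the schedule, the sex and the age of the mice are not given in the sources used here. Each mouse gave 1 poly(A)-selected library of renal tissue.

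Complement is a cascade of plasma proteins that marks immune complexes and damaged cells for clearance. In the classical pathway C1q binds antibody in an immune complex, the proteases C1r and C1s attached to it cut C4 and C2, and the resulting convertase cuts C3. In the alternative pathway factor D cuts factor B bound to C3b, which makes another convertase and amplifies the deposition of C3. The liver makes most of the circulating proteins, but C1q comes mainly from macrophages and dendritic cells, and tubule epithelium, fibroblasts and infiltrating leukocytes can make C3, C4 and factor B within the kidney. Immune complexes and C3 are deposited in glomeruli in lupus nephritis.

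Library totals ran from 14692113 to 17036862 counts. Values are CPM, counts relative to the library total, after scaling of the libraries by the trimmed mean of M values (TMM). edgeR's quasi-likelihood test gave a p for every gene tested, a gene was called when its Benjamini-Hochberg adjusted p fell under 0.05, and fold changes are AZD1152 over vehicle. Kidney markers were present in every library, with summed levels of 12080 to 14380 CPM with AZD1152 and 8025 to 10210 CPM with vehicle for 8 proximal tubule genes. AZD1152 replicate 2 had the lowest C1qa, C1qb, C1qc, C3 and C4b of the 7 libraries. Since the samples are bulk tissue, fewer cells of a type and less RNA per cell cannot be told apart in any of the values.

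The 2 groups were set against each other to see which renal transcripts differ in nephritic mice given the inhibitor. In the treated kidneys the 3 C1q chains, the protease gene C1s1 and C3 fell, and Cfb rose. C3 fell furthest, by 1.28 ± 0.24 on the log2 scale (SE), and the C1q chains fell by 0.91 to 0.97. C1ra, C4b and C2 did not pass the test, and Cfd was too low to be tested. Of the 10 components 5 were called lower and 1 higher, where 4.81% of all genes tested were called lower and 3.02% higher. The median log2 fold change of the 9 tested components was -0.66, and that of all genes tested was -0.001. In 5 of the 10 every AZD1152 library lay below every vehicle library, as in 11.6% of all genes tested, and in 1 every AZD1152 library lay above, as in 11.2%. When libraries were scaled by their total counts, the median of all genes became -0.151, with 13.5% of the calls higher in place of 38.5%, and the 6 called components kept their direction and their call in it. The Cfb call held without any 1 of the 7 libraries. Of the 5 lower calls 0 held in edgeR without vehicle replicate 3, where 6 components were lower at an unadjusted p under 0.05, and 1 held without vehicle replicate 1. Without AZD1152 replicate 1 or 4 or vehicle replicate 2, 3 components were called lower.

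**Figure D1:**
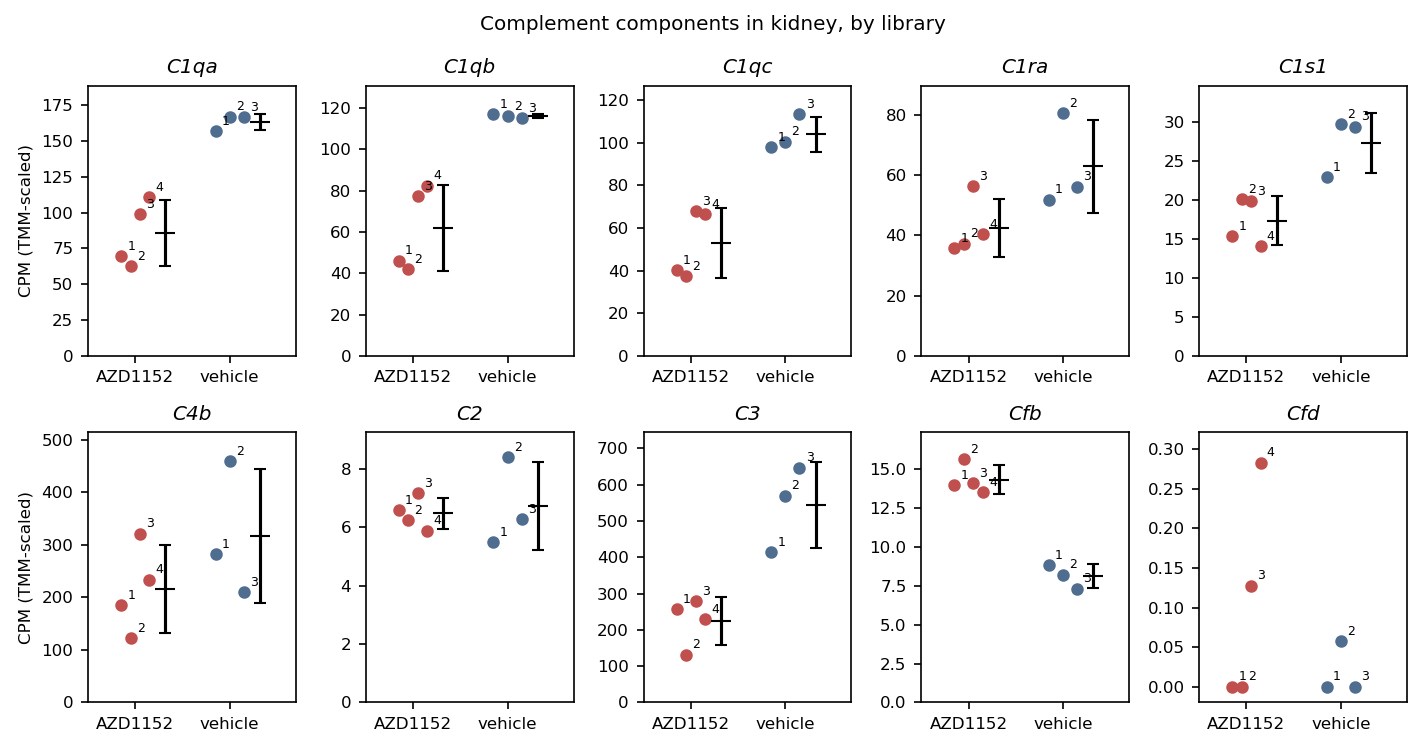
TMM-scaled CPM (y axis, linear) of the 10 complement components in each library, with AZD1152 libraries in red and vehicle libraries in blue, numbered by replicate. The black mark and bar give the mean and SD of each group (4 and 3 libraries), left out for Cfd with 7 counts in all. The groups do not overlap for C1qa, C1qb, C1qc, C1s1 and C3, where AZD1152 is lower, and for Cfb, where AZD1152 is higher.

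C1qa, C1qb and C1qc encode the A, B and C chains, which assemble into the C1q molecule that recognises bound antibody. They lie next to each other on the minus strand of chromosome 4 (GRCm38), C1qb at 136880129 to 136886187, C1qc at 136889804 to 136893065 and C1qa at 136895917 to 136898803. Of the 10 components 6 had a promoter window in the RefSeq table (GRCm38.p6), which runs from 250 bases before to 50 bases after a transcript start in RefSeq. The RefSeq start can differ from the end of the gene as given above. It lies at 136886200 for C1qb, 13 bases upstream of that end, and at 136892914 for C1qc, 151 bases inside the gene. Those of C1qb and C1qc are shown because these neighbours changed together, 5′ to 3′ on the minus strand, with matches to GAGGAA, the core of the motif of the myeloid factor PU.1, in capitals.
C1qb (chr4:136886151-136886450): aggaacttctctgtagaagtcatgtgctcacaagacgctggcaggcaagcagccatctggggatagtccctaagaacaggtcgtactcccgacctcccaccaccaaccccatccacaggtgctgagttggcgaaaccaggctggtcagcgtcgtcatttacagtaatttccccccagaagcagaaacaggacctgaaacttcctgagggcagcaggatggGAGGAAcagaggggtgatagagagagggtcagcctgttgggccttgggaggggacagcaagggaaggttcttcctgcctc
C1qc (chr4:136892865-136893164): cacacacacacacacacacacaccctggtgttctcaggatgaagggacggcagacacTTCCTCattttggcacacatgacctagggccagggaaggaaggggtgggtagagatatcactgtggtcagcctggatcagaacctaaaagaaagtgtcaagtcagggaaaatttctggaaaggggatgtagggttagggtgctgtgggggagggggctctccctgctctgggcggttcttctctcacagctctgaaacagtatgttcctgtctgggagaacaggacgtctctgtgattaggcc
C1qb held its match on the strand shown at bases -30 to -25, counted from the RefSeq start as base 0, and C1qc on the other strand at bases -193 to -188, and 28.3% of all 32851 windows hold at least 1 match on either strand. The window of C1ra, which was not called, also held a GAGGAA match, on the other strand at bases 44 to 49. The windows of C1s1, C3 and Cfd held none. The interferon-stimulated response element, TTCNNNGAA (the STAT motif), TTGCNNAA (C/EBP), TATAAA (the TATA box) and an NF-kB motif were also searched on both strands and had no match in either window. Of all windows 3.44%, 8.3%, 10.8%, 13.6% and 5.56% hold these motifs, in the same order.

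C1qa had 69.6, 62.8, 98.8 and 110.8 CPM in AZD1152 replicates 1 to 4, against 157.0, 167.0 and 166.4 CPM in vehicle replicates 1 to 3. C1qb had 46.1, 42.0, 77.4 and 82.4 CPM with AZD1152, against 117.2, 116.0 and 115.2 CPM with vehicle. C1qc had 40.3, 37.5, 68.0 and 66.5 CPM with AZD1152, against 97.9, 100.4 and 113.3 CPM with vehicle. In all 3 chains AZD1152 replicates 1 and 2 were the low pair, replicates 3 and 4 the high pair, and the vehicle libraries lay close together above them. C1qa averaged 85.5 ± 23.0 CPM in AZD1152 kidneys (SD, n = 4) and 163.5 ± 5.61 CPM in vehicle kidneys (SD, n = 3), a log2 fold change of -0.94 ± 0.18 (SE; edgeR adjusted p = 0.0219). The log2 fold change was -0.91 ± 0.22 for C1qb and -0.97 ± 0.21 for C1qc (SE), with edgeR adjusted p-values of 0.042 and 0.0287. The ratio of C1qb to C1qa counts within a library was 0.663 to 0.783 with AZD1152 and 0.692 to 0.747 with vehicle. That of C1qc to C1qa was 0.579 to 0.688 with AZD1152 and 0.601 to 0.681 with vehicle, so the ranges of both ratios overlapped. Without vehicle replicate 1 or 3 the calls of C1qa (edgeR adjusted p = 0.0573 and 0.0795) and C1qc (0.0704 and 0.109) were lost. The C1qb call was lost without any vehicle replicate or without AZD1152 replicate 1 or 2 (edgeR adjusted p = 0.0601 to 0.13).

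Macrophage markers were lower beside the C1q chains. All 16 macrophage genes had negative estimates, 8 were called lower and 0 higher, their median log2 fold change was -0.94, and none was at 0 counts. Over all genes tested 4.81% were called lower and 3.02% higher. The genes with the smallest p were Fcgr1, the high-affinity receptor for immunoglobulin G, at -1.60 ± 0.24, and Lyz2 (lysozyme) at -1.13 ± 0.21 (SE; edgeR adjusted p = 0.0111 and 0.0191). The summed level of the list was 1230 to 3234 CPM with AZD1152 and 3733 to 4575 CPM with vehicle. Most of this sum came from Cd74, which averaged 1676 CPM with AZD1152 and 2996 CPM with vehicle and was not called (edgeR adjusted p = 0.181). The mean log2 CPM of the C1q chains was lower by 0.99 and that of the macrophage markers by 0.98 in AZD1152 kidneys. The C1q mean minus the macrophage mean was 1.27 to 1.53 with AZD1152 and 1.24 to 1.60 with vehicle, and these ranges overlapped. Among 11017 other genes averaging 5 CPM or more, the profile over the 7 libraries was closest to that of the C1q chains for Spi1, Ppfia4 and Tnfrsf14. Their root mean square differences from it were 0.075, 0.082 and 0.084 on the log2 scale, where the median over all these genes was 0.598. Spi1, which encodes PU.1, averaged 12.8 ± 4.68 CPM in AZD1152 kidneys (SD, n = 4) and 25.4 ± 0.367 CPM in vehicle kidneys (SD, n = 3). The profiles were matched with the group difference in them, so this difference in Spi1 is no separate result. Whether PU.1 acts on the C1q genes was not tested.

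C1ra and C1s1 encode the proteases C1r and C1s, which C1q activates in turn. They lie on chromosome 6 (GRCm38), C1ra at 124512405 to 124523443 on the plus strand and C1s1 at 124530345 to 124542359 on the minus strand. C1s1 had 15.4, 20.1, 19.9 and 14.0 CPM in AZD1152 replicates 1 to 4, against 22.9, 29.7 and 29.4 CPM in vehicle replicates 1 to 3. Every AZD1152 library lay below every vehicle library, and the log2 fold change of C1s1 was -0.66 ± 0.16 (SE; edgeR adjusted p = 0.0402). C1ra had 35.8, 37.3, 56.5 and 40.5 CPM with AZD1152, against 51.9, 80.6 and 56.2 CPM with vehicle. AZD1152 replicate 3 reached the level of the lower vehicle libraries, vehicle replicate 2 stood above all others, and the groups overlapped. The log2 fold change of C1ra was -0.57 ± 0.19 (SE), which did not pass the test (edgeR adjusted p = 0.105), with a 95% interval from -1.0 to -0.13. It was called lower without AZD1152 replicate 3 (-0.74, edgeR adjusted p = 0.0409), under total counts (0.0496), without the filter (0.0452) and in DESeq2 (adjusted p = 0.0444). The C1s1 call was lost without any vehicle replicate or without AZD1152 replicate 1 or 4 (edgeR adjusted p = 0.0536 to 0.149).

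Both proteases have near-identical neighbours, and the sharing of reads between them was not given in the sources used here. Of the 50-base windows of the longest C1ra transcript 48.0% occur exactly in a transcript of C1rb, and of those of C1s1 24.3% occur in C1s2. C1rb had 28 to 72 counts over the 7 libraries and C1s2 had 13 to 50. C1s1 also shares 18.4% of its exonic bases with the antisense gene Gm16567, which had 0 counts in every library. The values of C1ra and C1s1 are uncertain by what was assigned to these genes. If shared reads were discarded, they are also uncertain by reads assigned to no gene, which the counts of the neighbours do not show.

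Fibroblast markers were lower beside C1s1. All 8 had negative estimates, 2 were called lower and 0 higher, no marker was at 0 counts, and the median log2 fold change was -0.74. The share called lower over all genes tested was 4.81%. Col1a1, a chain of type I collagen, had -1.31 ± 0.24, and Col1a2, its partner chain, had -0.88 ± 0.19 (SE; edgeR adjusted p = 0.0197 and 0.0295). Their summed level was 193.0 to 328.8 CPM with AZD1152 and 405.3 to 558.7 CPM with vehicle. The log2 CPM of C1s1 minus the mean of the fibroblast markers was -0.20 to -0.03 with AZD1152 and -0.52 to 0.04 with vehicle, and the ranges overlapped.

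**Figure D2:**
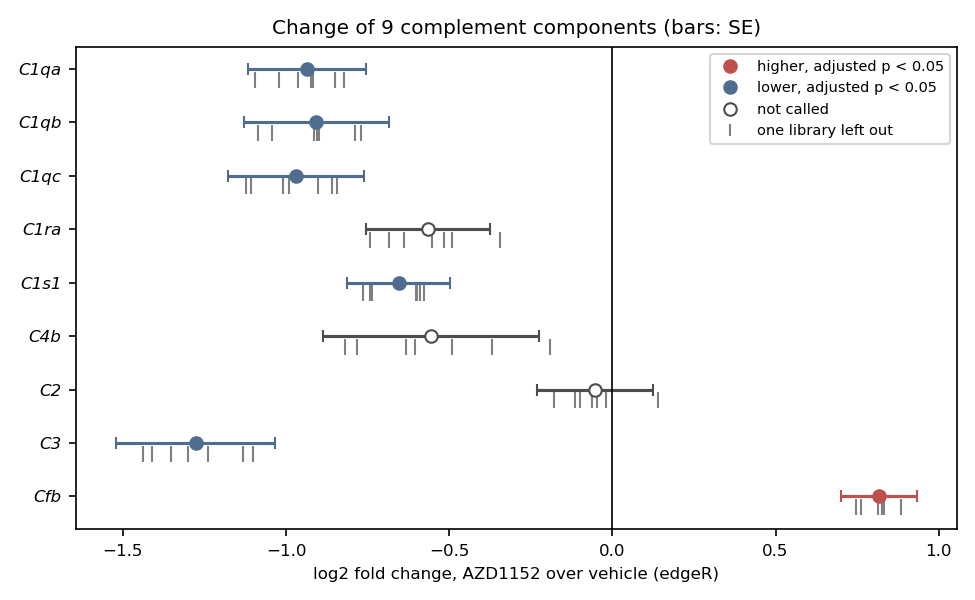
Log2 fold change of AZD1152 over vehicle (x axis) for the 9 tested complement components in edgeR, with circles for the estimate from all 7 libraries and bars for its SE. Filled circles passed an adjusted p of 0.05 (blue lower, red higher), open circles did not, and grey ticks are estimates with 1 library left out. C3 is furthest to the left at -1.28, Cfb is alone on the right at 0.82, and only for C2 do the ticks fall on both sides of 0.

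C4b and C2 encode the proteins that C1s cuts to form the classical convertase. C4b (chromosome 17, 34728380 to 34743882, minus strand, GRCm38) had 185.4, 122.6, 321.4 and 234.0 CPM in AZD1152 replicates 1 to 4, against 282.5, 459.1 and 210.5 CPM in vehicle replicates 1 to 3. The groups overlapped and the spread within them was wide, with AZD1152 replicate 3 and vehicle replicate 2 highest in their groups as for C1ra. The log2 fold change of C4b was -0.56 ± 0.33 (SE; edgeR adjusted p = 0.341), with a 95% interval from -1.30 to 0.19, and was -0.82 without AZD1152 replicate 3 and -0.19 without vehicle replicate 2. Of the 50-base windows of the longest C4b transcript 35.2% occur exactly in C4a, the neighbouring copy, which had 86 to 158 counts against 1846 to 8040 for C4b. C2 (chromosome 17, 34862604 to 34898265, minus strand) had 6.59, 6.24, 7.15 and 5.88 CPM with AZD1152, against 5.48, 8.39 and 6.28 CPM with vehicle. Its AZD1152 libraries lay within the range of the vehicle libraries, and the log2 fold change was -0.05 ± 0.18 (SE; edgeR adjusted p = 0.886), with a 95% interval from -0.46 to 0.35.

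C3 encodes the protein on which all pathways converge and whose fragments are deposited on targets. It lies on the minus strand of chromosome 17 (GRCm38, 57203970 to 57228136). Its promoter window is shown because C3 had the largest estimate among the components, 5′ to 3′ on the minus strand, with matches to TTGCNNAA (C/EBP) and TATAAA in capitals.
C3 (chr17:57228087-57228386): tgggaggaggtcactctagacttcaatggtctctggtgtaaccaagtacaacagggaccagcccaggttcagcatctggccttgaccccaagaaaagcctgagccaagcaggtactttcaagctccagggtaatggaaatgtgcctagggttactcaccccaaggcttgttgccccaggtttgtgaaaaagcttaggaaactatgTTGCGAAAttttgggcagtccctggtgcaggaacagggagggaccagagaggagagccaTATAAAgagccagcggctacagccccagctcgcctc
The C/EBP match lay at bases -45 to -38 from the RefSeq start, which is also the gene's 5′ end above. The TATAAA match lay at bases 14 to 19, downstream of that start, and whether it acts as a TATA box was not tested. The other motifs named above had no match in this window. TTGCNNAA also matched in the window of C1ra, which was not called, and in a window of C1s1, but not in those of C1qb, C1qc and Cfd.

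C3 had 257.0, 131.5, 279.4 and 229.3 CPM in AZD1152 replicates 1 to 4, against 414.5, 569.8 and 646.7 CPM in vehicle replicates 1 to 3. Every AZD1152 library lay below every vehicle library, with AZD1152 replicate 2 apart at the low end. The mean was 58.7% lower in AZD1152 kidneys, and the log2 fold change of -1.28 had an edgeR adjusted p of 0.0212 and a 95% interval from -1.83 to -0.73. Without AZD1152 replicate 2 it was -1.10 (edgeR adjusted p = 0.0161), and the call was lost without AZD1152 replicate 4 or vehicle replicate 3 (0.0555 and 0.0834). Markers of injured tubule were lower beside C3, 7 of 8 with negative estimates, 4 called lower and 0 higher, none at 0 counts, with -0.93 as median log2 fold change. The share called lower over all genes tested was 4.81%. Vcam1, an adhesion molecule for leukocytes, had -1.64 ± 0.19 and Spp1 (osteopontin) -0.85 ± 0.18 (SE; edgeR adjusted p = 0.009 and 0.0304). The summed level of this list was 1630 to 2634 CPM with AZD1152 and 3136 to 4293 CPM with vehicle. Most of this sum came from Spp1, which averaged 1825 CPM with AZD1152 and 3286 CPM with vehicle. The log2 CPM of C3 minus the mean of these markers was 2.76 to 3.4 with AZD1152 and 3.05 to 3.82 with vehicle, and the ranges overlapped. The profiles closest to that of C3 were those of Arhgap45, Kif21b and Mlkl, with root mean square differences of 0.112, 0.137 and 0.174 on the log2 scale against a median of 0.768 over the 11017 genes. Mlkl, the effector of necroptosis, had a log2 fold change of -1.48 ± 0.25 (SE). It was picked by a profile that includes the group difference, so this change is no separate result.

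Cfb encodes factor B, the protease precursor of the alternative convertase and the counterpart of C2. It lies on the minus strand of chromosome 17 (GRCm38, 34856374 to 34862518), directly beside C2. Cfb had 14.0, 15.7, 14.1 and 13.5 CPM in AZD1152 replicates 1 to 4, against 8.85, 8.22 and 7.33 CPM in vehicle replicates 1 to 3. Every AZD1152 library lay above every vehicle library and the spread within both groups was small. The mean in AZD1152 kidneys was 1.76 times that in vehicle kidneys, a log2 fold change of 0.82 ± 0.12 (SE; edgeR adjusted p = 0.0106), and it was 0.75 to 0.88 with 1 library left out. The counts of Cfb come from a small part of its transcript if reads over shared exons were discarded, which the sources used here do not say. The read-through gene Gm20547 covers exons of C2 and Cfb on the same strand, has 0 exonic bases outside them, and had 0 counts in every library. Of 2825 exonic bases of Cfb 579 (20.5%) are not shared with it, 467 of them in its first exon, and of 3872 exonic bases of C2 2216 (57.2%) are not shared.

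Genes of the proximal tubule were higher beside Cfb, 4 of 8 called higher and 0 lower, none at 0 counts, with 0.44 as median log2 fold change. The share called higher over all genes tested was 3.02%. Slc5a2, a glucose carrier, had 0.75 ± 0.14 and Slc5a12, a lactate carrier, 0.81 ± 0.17 (SE; edgeR adjusted p = 0.0207 and 0.0264). The log2 CPM of Cfb minus the mean of these markers was -6.39 to -6.23 with AZD1152 and -6.75 to -6.56 with vehicle, so that the AZD1152 libraries lay above the vehicle libraries by 0.325 on average. The profiles closest to that of Cfb were those of Limch1, Acaa2 and Pcx, with root mean square differences of 0.065, 0.067 and 0.074 on the log2 scale against a median of 0.42 over the 11017 genes. Acaa2, a thiolase of mitochondrial fatty acid oxidation, had a log2 fold change of 0.74 ± 0.10, and Pcx, pyruvate carboxylase, of 0.69 ± 0.10 (SE). Since the matched profiles include the group difference, these changes follow from the choice of the genes and are no separate results. The part of tubule, macrophage and fibroblast content in the changes of the components was not tested.

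**Figure D3:**
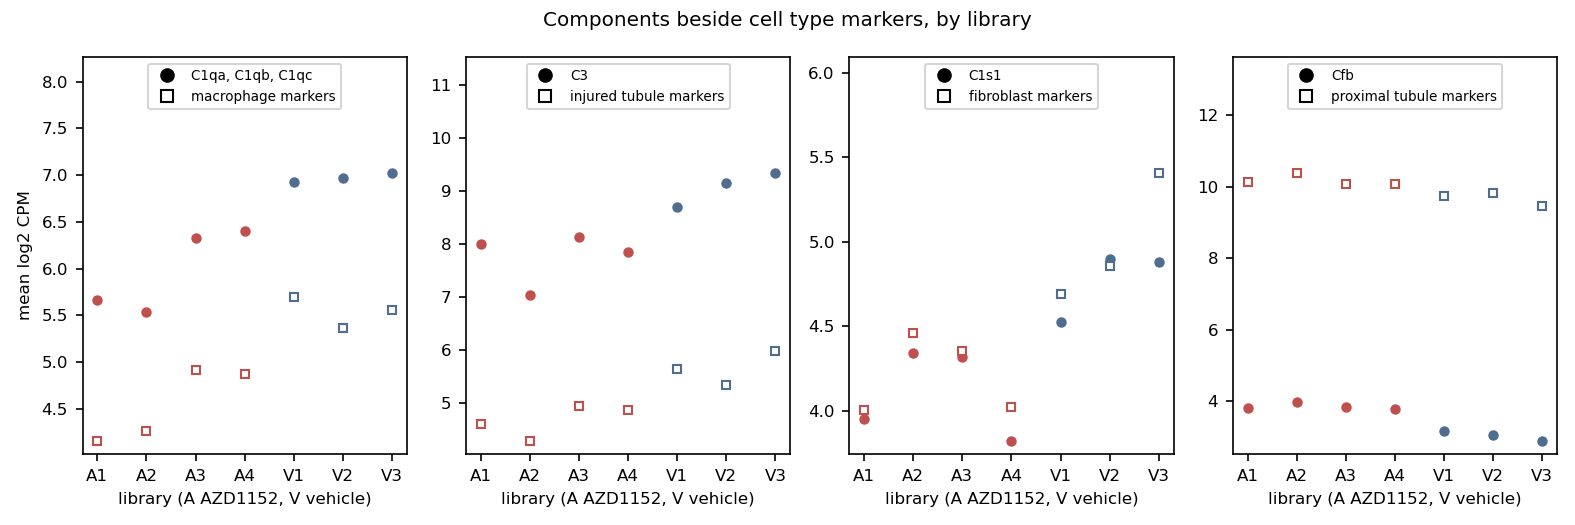
Log2 CPM (y axis, a range of its own in each panel) of complement components as filled circles and the mean log2 CPM of marker lists as open squares, for AZD1152 libraries A1 to A4 in red and vehicle libraries V1 to V3 in blue. C1q, C3 and C1s1 and the macrophage, injured tubule and fibroblast markers beside them are lower in all AZD1152 libraries, and Cfb and the proximal tubule markers are higher in all of them.

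Cfd encodes factor D, the protease that cuts factor B and is known in mice as adipsin for its abundance in fat. It lies on chromosome 10 (GRCm38, 79890853 to 79892655, plus strand). Cfd had 0, 0, 2 and 4 counts in AZD1152 replicates 1 to 4, against 0, 1 and 0 counts in vehicle replicates 1 to 3. All but AZD1152 replicate 4 lie under 3 counts, the limit that a count of 0 allows, so no fold change is given. That limit is 0.176 to 0.204 CPM of the library totals without TMM scaling. Of 9 adipocyte markers Adipoq and Lep had 0 counts in all libraries and Plin1 and Cidec averaged under 0.1 CPM in both groups. The summed level of the 9 was 29.5 to 52.6 CPM with AZD1152 and 30.0 to 60.0 CPM with vehicle, nearly all from Fabp4 and Plin4, which endothelium or other cells can also express, and 0 of the 2 tested were called.

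Ratios between components within a library do not depend on how libraries are scaled. The ratio of Cfb to C3 counts was 0.0544, 0.119, 0.0505 and 0.059 in AZD1152 replicates 1 to 4, against 0.0214, 0.0144 and 0.0113 in vehicle replicates 1 to 3. All AZD1152 libraries were above all vehicle libraries, by 2.13 on the log2 scale. The ratio of C2 to Cfb was 0.398 to 0.507 with AZD1152 and 0.618 to 1.02 with vehicle, a difference of -0.85 on the log2 scale, again without overlap. The exact permutation test took its two-sided p by doubling the smaller tail. With 4 against 3 libraries the smallest p of this form is 0.0571, which both ratios reached (adjusted p = 0.171 over 6 pairs). No call was possible with this form of the test. The ratio of C4b to C3 was 0.721 to 1.15 with AZD1152 and 0.325 to 0.806 with vehicle, and these ranges overlapped (exact permutation p = 0.114, adjusted 0.228). For C1qb to C1qa, C1qc to C1qa and C1s1 to C1ra the exact permutation p was 0.971, 0.514 and 0.571 (adjusted 0.971, 0.685 and 0.685), with C1s1 to C1ra at 0.346 to 0.54 with AZD1152 and 0.369 to 0.523 with vehicle.

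**Figure D4:**
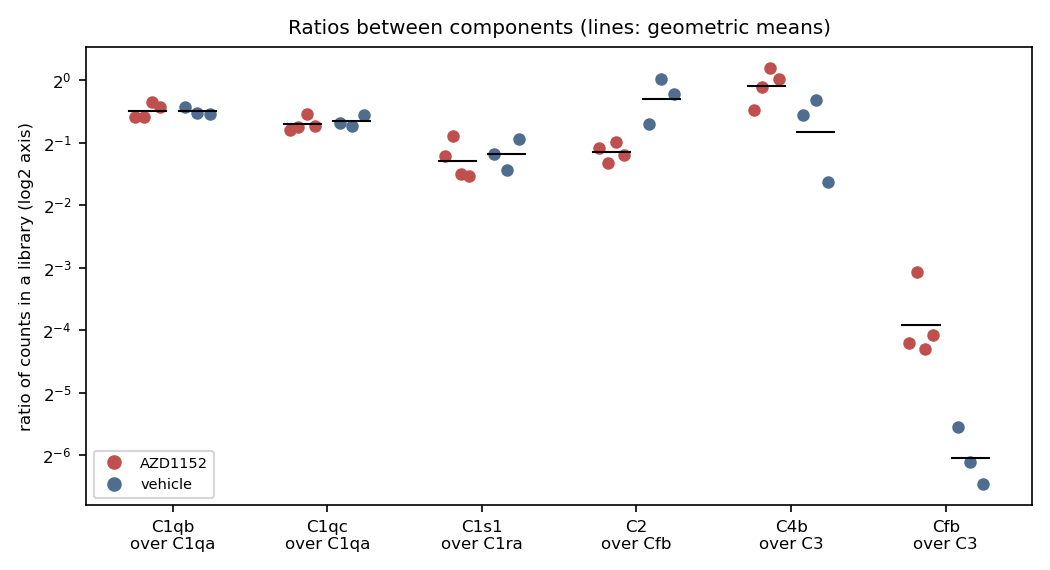
Ratio of the counts of 2 complement components within each library (y axis, log2 scale) for 6 pairs, with AZD1152 libraries in red left of vehicle libraries in blue and lines at the geometric means. The C1q ratios and C1s1 over C1ra overlap between the groups, C2 over Cfb is lower in all AZD1152 libraries and Cfb over C3 is higher in all of them.

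The order of the components by level was compared per kilobase of exons. In AZD1152 kidneys C1qa was highest with a mean of 82.2 ± 22.1 CPM per kilobase (SD, n = 4), followed by C1qb (57.0), C3 (43.6), C4b (37.9), C1qc (27.5), C1ra (14.3), C1s1 (5.54), Cfb (5.07), C2 (1.67) and Cfd (0.112). In vehicle kidneys the order of the means over all exons was the same, with C1qa at 157.2 ± 5.40 CPM per kilobase (SD, n = 3), C1qb at 106.8, C3 at 105.7, C4b at 55.7, C1qc at 53.8, C1ra at 21.1, C1s1 at 8.73, Cfb at 2.88, C2 at 1.73 and Cfd at 0.0207. Neighbours whose libraries overlapped in AZD1152 kidneys were C1qa and C1qb, C1qb and C3, C3 and C4b, C4b and C1qc, and C1s1 and Cfb. In vehicle kidneys they were C1qb and C3, C3 and C4b, and C4b and C1qc, while C1s1 (7.32 to 9.49) and Cfb (2.60 to 3.13 CPM per kilobase) did not overlap. All counts of Cfb were also divided by the length of its unshared exons, as if none came from shared exons. This gave 24.7 ± 1.61 CPM per kilobase in AZD1152 kidneys (SD, n = 4) and 14.1 ± 1.32 in vehicle kidneys (SD, n = 3). By these means Cfb would stand between C1qc and C1ra in AZD1152 kidneys and between C1ra and C1s1 in vehicle kidneys. Its place in the order thus depends on which exons were counted. C2 divided in the same way had 2.92 ± 0.244 CPM per kilobase in AZD1152 kidneys (SD, n = 4) and 3.03 ± 0.681 in vehicle kidneys (SD, n = 3). The places of C4b, C1ra and C1s1 are also uncertain, by how reads shared with their near-identical neighbours were assigned or discarded.

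Of 39 further complement genes 28 were tested, and 2 were called lower and 1 higher, where 4.81% and 3.02% of all genes tested were. Of the 28, 22 had negative estimates, and their median log2 fold change was -0.38. Itgb2, the β chain of the C3 fragment receptors CR3 and CR4, had 28.4 to 45.2 CPM in AZD1152 kidneys and 71.6 to 100.4 CPM in vehicle kidneys, a log2 fold change of -1.19 ± 0.17 (SE; edgeR adjusted p = 0.0108). Cfp, properdin, which stabilises the alternative convertase, had a log2 fold change of -0.94 ± 0.24 (SE; edgeR adjusted p = 0.0469). Itgam, the α chain of CR3, had -1.18 ± 0.31 and did not pass (edgeR adjusted p = 0.0537). Mbl2, a mannose-binding lectin of the lectin pathway, rose to 1.81 ± 0.276 CPM in AZD1152 kidneys, against 0.593 ± 0.296 CPM in vehicle kidneys (log2 fold change 1.60 ± 0.35, SE; edgeR adjusted p = 0.0304). C8g, the γ chain of C8, had 0.45 ± 0.15 and Mbl1, the other mannose-binding lectin, 0.59 ± 0.24, and neither passed (edgeR adjusted p = 0.0968 and 0.175). Hc, which encodes C5, had at most 2 counts in a library, C9 at most 5, and C8b and Colec10 had 0 counts in all.

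Markers of other cell types gave these values beside the components, where 4.81% of all genes tested were called lower and 3.02% higher. Of 7 T cell genes 6 were called lower and 0 higher, with -1.35 as median log2 fold change and a summed level of 45.2 to 61.8 CPM with AZD1152 and 84.7 to 129.2 CPM with vehicle. Of 6 B and plasma cell genes 0 were called in edgeR, at a summed level of 35.2 to 507.6 CPM with AZD1152 and 126.8 to 789.3 CPM with vehicle. Hepatocyte markers, a check for liver RNA, summed to 9.58 to 15.4 CPM with AZD1152 and 8.34 to 9.90 CPM with vehicle, and 0 of the 3 tested were called. On average most of this sum came from Alb, with a mean of 9.34 CPM with AZD1152 and 5.29 CPM with vehicle (edgeR adjusted p = 0.159). Of 6 genes of other nephron segments 0 were called, at 3459 to 5991 CPM with AZD1152 and 4798 to 6148 CPM with vehicle.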

How the data were processed

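Bulk RNA of 7 kidneys was read from a table of raw counts per gene as the authors deposited it, with no normalization. Per the submitters' processing notes, CASAVA, HISAT2 2.0.5, DESeq2, DESeq and the build GRCm38 were used. Which program counted the reads, whether it used strand and which annotation it read are not given in the sources used here. Groups were taken from sample titles and columns matched by sample descriptions, with no column left over. No 2 libraries agreed within sampling noise (21 pairs, chi-square over its degrees of freedom at least 10.8). Symbols, positions, exon lengths and transcripts came from GENCODE mouse release M21 (GRCm38), and 53360 of 53465 genes had a symbol.

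Counts were filtered with filterByExpr, TMM-scaled, and the quasi-likelihood test of edgeR 4.0.16 (R 4.3.3) was run on group alone, two-sided, with Benjamini-Hochberg adjustment over 15774 genes. Standard errors are |log2 fold change| over the root of the F statistic, and 95% intervals use the test's degrees of freedom. Single-library log2 CPM had 2 as prior count, ratios a pseudocount of 0.5. The floor of 3 counts covers counting error only. The steps were tested on simulated counts.

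The members and lists were chosen with earlier results of these data known. Named are all 10 components, the 3 other complement genes with the smallest p in each direction, up to 2 of each marker list and the 3 closest profiles of C1q, C3 and Cfb, and Cfd was left out of the last because it was not tested. Marker genes at 0 and genes near it were named from their values. Alternatives were RLE factors, total counts, TMM without mitochondrial, immunoglobulin and the 50 most abundant genes, no filter, a stricter filter (1 CPM in 3 libraries and a mean of 2 CPM), DESeq2 1.42.0, limma-trend 3.58.1, the replicate number as a block, and each library left out.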

Additional observations from a re-analysis of the deposited data

Results flagged for a closer look

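The ratio of Cfb to C3 counts was 0.119 in AZD1152 replicate 2, apart from the other AZD1152 libraries at 0.0505 to 0.059, where that library had both the lowest C3 and the highest Cfb of its group. It was the only value past Dixon's 95% limit for 4 libraries among 16 sets of AZD1152 values (the CPM of 10 components and 6 ratios). Chance flags about 1 in 20 such sets. The limit was applied to CPM and ratios as such and not to their log2 values, so the flag is given for that scale only. Without that library the Cfb to C3 ratio still differed in the same direction, as did the ratio without any other library, by 1.84 to 2.37 on the log2 scale.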

How the results depend on the processing

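Over 15 alternatives the estimates of C1qa, C1qb, C1qc, C1ra, C1s1, C3, C4b and Cfb kept their sign. C2, near 0, turned to 0.009 with the replicate block and ran -0.178 to 0.141 with a library left out, positive without vehicle replicate 2. Over all genes 476 were higher and 759 lower. Total counts gave 232 and 1482, DESeq2 954 and 1138, and leaving out a library 60 to 475 and 163 to 619. Of the components 5 were lower and 1 higher, and leaving out a library gave 0 to 6 lower (0 without vehicle replicate 3) and 1 higher each time. With the replicate number as a block 63 genes were higher and 146 lower, 2 components were called lower and 0 higher in edgeR, where 6 and 1 were at an unadjusted p under 0.05. The labels give no shared litter or day, deviations of same-numbered libraries correlated at -0.288, 0.209 and -0.119, and 1 of 3 vehicle libraries correlated best with its own number, so the numbers were not taken as pairs. The small ratio differences changed sign without single libraries, from -0.042 to 0.039 for C1qb over C1qa, -0.099 to 0.006 for C1qc over C1qa and -0.232 to 0.025 for C1s1 over C1ra. The cause of these shifts was not tested. With 3 and 4 mice, and no statement on separate cages or days, p-values measure the spread between these mice, and depth limits Cfd.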
